A study of Mus musculus with 9 samples.

Results

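The coreceptor genes Cd4, Cd8a and Cd8b1 were followed across 9 RNA-seq libraries of mouse regulatory T (Treg) cells. They were taken by symbol, and all 3 were among the 13698 genes of the table. The libraries came from spleen and lymph node of mice of a C56Bl6/129 mix background, and each group below is made up of 3. Cells of the deficient group were YFP+MHCII- cells from LRFffThpokff Foxp3 Cre-YFP/X mice, in which Cre is made from the Foxp3 allele and removes the floxed genes for Thpok (Zbtb7b) and LRF (Zbtb7a) in cells that use that allele. As animal controls served YFP-MHCII-CD25hi cells from the 3 mice that gave the deficient cells; they used the other, unmodified Foxp3 allele, so no Cre was made in them. As genetic controls served YFP+MHCII- cells from 3 other mice, WT Foxp3 Cre-YFP/X, without floxed genes. Age was not stated. Every mouse thus carried the Foxp3 Cre-YFP allele, and only the animal controls were chosen on CD25.

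Coreceptors help the T cell receptor to read its ligand. CD4 binds MHC class II and marks helper and most regulatory T cells. CD8 binds MHC class I, marks cytotoxic T cells, and is built either from an alpha chain (Cd8a) with a beta chain (Cd8b1) or from alpha chains alone. Thymocytes pass through a stage that carries both coreceptors, and mature T cells usually keep either CD4 or CD8. Thpok is known to hold down CD8-lineage genes in CD4 T cells, while Runx factors repress Cd4 and favour Cd8a and Cd8b1 in CD8 T cells.

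The genes lie on chromosome 6 of GRCm38, where GENCODE M21 places Cd4 from 124864692 to 124888221 on the minus strand. Cd8b1 (71322788 to 71337494) and Cd8a (71373427 to 71379173) are neighbours on the plus strand, and 0 annotated genes overlap any of the 3. The tail inside the cell is where the chains differ in how they signal. The tails of CD4 and CD8 alpha hold the pair of cysteines through which the kinase Lck is bound, and the beta chain does not. The last 120 coding bases of the GENCODE transcript with the longest complete coding sequence, stop codon included, are given here because this motif sets Cd8b1 apart from Cd4 and Cd8a. The capitals mark in-frame codons that read cysteine, any residue, cysteine, proline.

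Cd4: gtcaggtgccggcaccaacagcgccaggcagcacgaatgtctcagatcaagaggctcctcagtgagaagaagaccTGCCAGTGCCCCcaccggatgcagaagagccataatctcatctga

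Cd8a: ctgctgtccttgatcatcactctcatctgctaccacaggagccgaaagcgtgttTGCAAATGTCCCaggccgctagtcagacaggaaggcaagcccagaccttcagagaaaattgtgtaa

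Cd8b1: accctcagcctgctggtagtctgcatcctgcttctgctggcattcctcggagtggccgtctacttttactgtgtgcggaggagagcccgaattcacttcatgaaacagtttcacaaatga

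The motif occurred 1 time in the whole coding sequence of Cd4 (1374 bases) and 1 time in that of Cd8a (744 bases). It ended 10 codons before the stop in Cd4 and 17 codons before it in Cd8a. It occurred 0 times in Cd8b1 (642 bases).

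Values are log2 CPM (reads scaled to a common total per library) as the authors deposited them, printed here as CPM. They were read as quantile-normalized, because all libraries share their lowest and highest value. The read depth behind them is unknown, so no counting error is given, and means are followed by SD over 3 libraries. Zbtb7b measured 0.260 ± 0.110 CPM in the deficient cells against 92.1 to 149 CPM in the genetic and 76.9 to 106 CPM in the animal controls, as the labels of the groups have it. Zbtb7a read 89.5 ± 12.6, 90.3 ± 21.0 and 112 ± 19.3 CPM in the same order. A value per gene does not check a deletion of part of that gene. Foxp3, the factor that defines Treg cells, read 905 ± 132 CPM in the animal controls, but 32.2 ± 5.02 CPM in deficient and 33.3 ± 7.38 CPM in genetic control cells. So Foxp3 RNA was low in both groups that used the Foxp3 Cre-YFP allele.

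In the deficient cells Cd4 RNA was lower by 2.41-fold against the genetic controls and by 2.50-fold against the animal controls, but it was not lost. Cd8a RNA was higher by 17.6-fold against the genetic controls and by a log2 difference of 3.53 against the animal controls, and per kb of transcript it came to about the level of Cd4. Cd8b1 RNA was higher by 7.89-fold against the genetic controls and by 5.18-fold against the animal controls, where it did not pass the test. Between the control groups no difference in the 3 genes passed the test. There 0.0365% of all genes were called, all lower in the genetic controls, and 10.4% had groups that did not overlap (4.88% higher and 5.57% lower in the genetic controls).

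**Figure D1:**
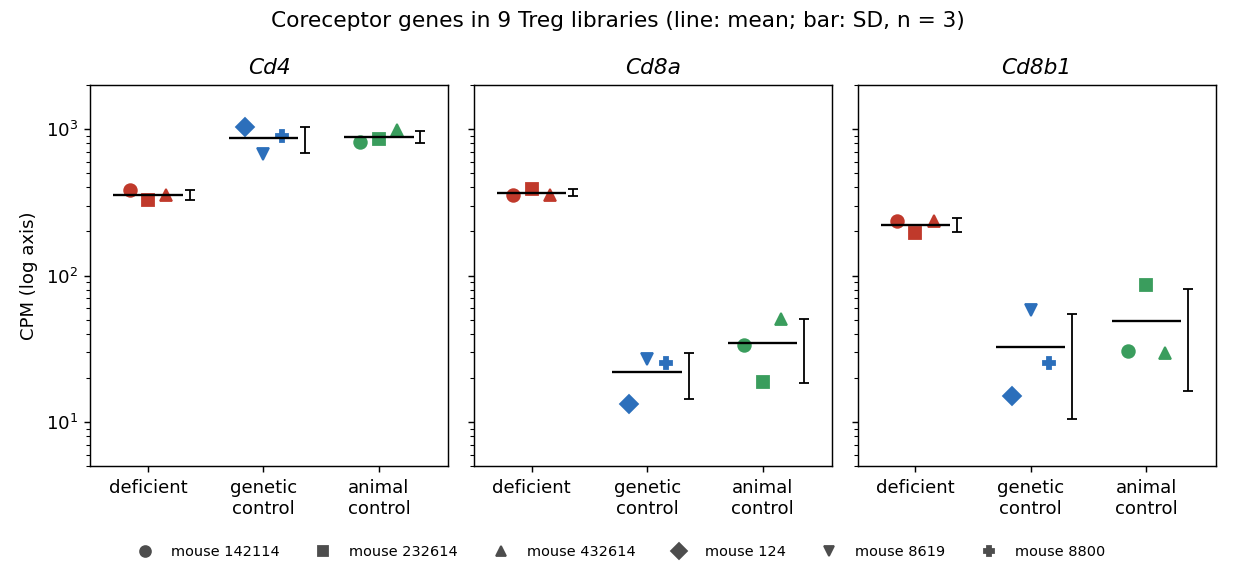
CPM on a log axis of Cd4, Cd8a and Cd8b1 in each library, with the mean (line) and SD (bar) of the 3 libraries of a group. The 3 deficient libraries lie below all 6 controls for Cd4 and above all 6 for Cd8a and Cd8b1, and the controls of Cd8b1 spread from 15.1 to 86.4 CPM.

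Cd4 measured 381, 329 and 355 CPM in deficient libraries 142114, 232614 and 432614. The genetic controls 124, 8619 and 8800 read 1026, 678 and 892 CPM, and the animal controls of mice 142114, 232614 and 432614 read 820, 860 and 988 CPM. All deficient libraries lay below all controls, while the 2 control groups overlapped. The log2 difference was -1.27 ± 0.15 (SE, n = 3 against 3) against the genetic controls, with an adjusted p of 0.00488 (limma, Benjamini-Hochberg). Against the animal controls it was -1.32 ± 0.15, with an adjusted p of 0.00338 (limma). By this test 0.869% of all genes were called against the genetic controls and 0.891% against the animal controls, of which those lower in the deficient cells made up 0.533% and 0.584% of all genes. Groups that did not overlap were seen for 15.7% and 15.9% of all genes. Of all genes, 7.28% had every deficient library below every genetic control, and 8.1% had every deficient library below every animal control. Cd4 stayed called in each of the 9 fits that left out 1 library (limma adjusted p up to 0.0317 and 0.0241). It was not called when limma was run without the mean-variance trend (adjusted p = 0.116 and 0.0971), nor on the 6 libraries of deficient cells and genetic controls alone (adjusted p = 0.0562).

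Cd4 remained an abundant RNA in the deficient cells. It ranked between 424 and 514 from the top of 13698 genes in those libraries, and between 100 and 189 in the 6 controls. The spread was small within the deficient group, with a coefficient of variation of 7.24%, against 20.3% in the genetic and 9.86% in the animal controls. Between the control groups Cd4 differed by -0.06 ± 0.15 on the log2 scale (genetic minus animal, limma adjusted p = 1).

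Cd8a, the alpha chain that forms the ligand-binding CD8 dimers, measured 354, 390 and 357 CPM in deficient libraries 142114, 232614 and 432614. The genetic controls 124, 8619 and 8800 read 13.2, 27.2 and 25.3 CPM. The animal controls of mice 142114, 232614 and 432614 read 33.8, 18.7 and 50.9 CPM. The lowest deficient library was thus well above the highest control, and the 2 control groups overlapped. The log2 difference was 4.14 ± 0.40 against the genetic controls (limma adjusted p = 0.00188) and 3.53 ± 0.40 against the animal controls (limma adjusted p = 0.00345). Of all genes, 0.336% were called higher against the genetic and 0.307% against the animal controls. Every deficient library lay above every genetic control for 8.44% of all genes, and above every animal control for 7.85%. Cd8a was called in all fits run for both comparisons, with limma adjusted p up to 0.0332. Between the control groups it differed by -0.61 ± 0.40 (genetic minus animal, limma adjusted p = 0.842).

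Cd8a lay among the middle ranks of the table in the controls, between 4202 and 7489 from the top. In the deficient libraries it ranked between 409 and 467, and its coefficient of variation was 5.41%, against 34.6% in the genetic and 46.7% in the animal controls.

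Cd8b1, the beta chain that pairs with the alpha chain on most CD8 T cells, measured 237, 195 and 235 CPM in deficient libraries 142114, 232614 and 432614. The genetic controls 124, 8619 and 8800 read 15.1, 57.8 and 25.4 CPM. The animal controls of mice 142114, 232614 and 432614 read 30.6, 86.4 and 29.5 CPM. All deficient libraries were above all controls, but a single library stood high in each control group, genetic control 8619 and animal control 232614. The log2 difference was 2.98 ± 0.53 against the genetic controls (limma adjusted p = 0.0370) and 2.37 ± 0.53 against the animal controls, which did not pass (limma adjusted p = 0.0880). Between the control groups it was -0.61 ± 0.53 (genetic minus animal, limma adjusted p = 0.915).

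The Cd8b1 call against the genetic controls was lost in 7 of the 9 fits without 1 library. The limma adjusted p was 0.106, 0.101 and 0.112 without deficient libraries 142114, 232614 and 432614. It was 0.0931 and 0.132 without genetic controls 124 and 8800, and 0.0543 and 0.0522 without animal controls 142114 and 432614. Without both genetic control 8619 and animal control 232614, a choice made after their Cd8b1 values were seen, the log2 difference was 3.50 against the genetic controls (limma adjusted p = 0.0159). Against the animal controls it was then 2.88, and it passed the test (limma adjusted p = 0.0324).

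Levels of different genes were set side by side per kb of transcript. The ratios and the share further below are of CPM, with the ratios also given per kb. Transcript lengths were taken as 3108 bases for Cd4, 3128 for Cd8a and 1483 for Cd8b1. All annotated exons together come to 4032, 3637 and 1483 bases, so the order of Cd4 and Cd8a depends on the transcript used. In the deficient cells Cd4 stood at 114 ± 8.27, Cd8a at 117 ± 6.36 and Cd8b1 at 150 ± 16.1 CPM per kb. In the genetic controls the same genes stood at 278 ± 56.4, 6.99 ± 2.42 and 22.1 ± 15.1 CPM per kb. In the animal controls they stood at 286 ± 28.2, 11.02 ± 5.15 and 32.9 ± 21.9 CPM per kb. Cd4 was the highest of the 3 in every control library on this scale. In the deficient libraries Cd8b1 was the highest, and the order of Cd4 and Cd8a differed between libraries.

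The Cd4 to Cd8a ratio of CPM was 1.07 in deficient library 142114, 0.844 in 232614 and 0.994 in 432614. It was 77.6, 25.0 and 35.3 in genetic controls 124, 8619 and 8800. In the animal controls of mice 142114, 232614 and 432614 it was 24.3, 45.9 and 19.4. The lowest control ratio was therefore far above the highest deficient ratio, and the control groups overlapped. The mean log2 ratio was -0.05 ± 0.18 in the deficient cells, 5.35 ± 0.84 in the genetic and 4.80 ± 0.64 in the animal controls. The deficient mean was lower by 5.40 on the log2 scale than that of the genetic controls. This is a ratio 42.3-fold below that of the genetic controls, and the ratio was 28.8-fold below that of the animal controls. No p is given for the ratios, since with 3 libraries against 3 an exact permutation test cannot go below 0.1. As Cd4 and Cd8a transcripts are of nearly equal length, the ratios per kb were close to these, from 0.850 to 1.08 in the deficient cells.

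Counted as a share of the summed Cd4 and Cd8a CPM, Cd8a made up 48.2% to 54.2% in the deficient libraries. It made up 1.27% to 3.85% in the genetic and 2.13% to 4.90% in the animal controls. The sum itself was 722 ± 11.4 CPM for deficient libraries, against 887 ± 169 CPM for genetic and 924 ± 100 CPM for animal controls. These libraries are bulk samples, in which fewer cells of a type and less RNA per cell cannot be told apart. Nor can cells that carry both RNAs be told apart from a mixture of cells that carry either.

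**Figure D2:**
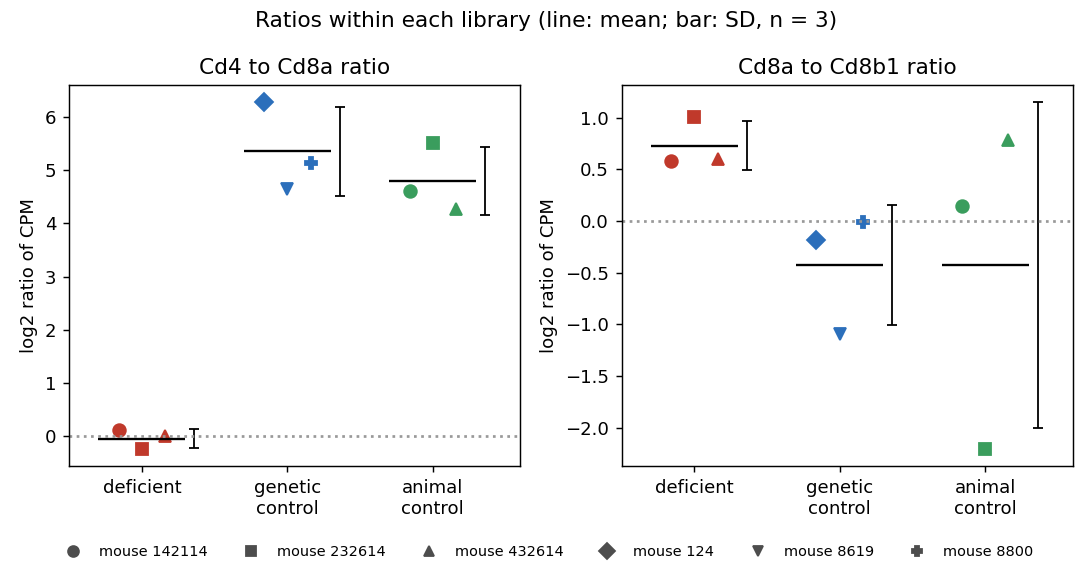
Log2 ratio of Cd4 to Cd8a and of Cd8a to Cd8b1 in each library, in CPM, with the mean (line) and SD (bar) of 3 libraries. The deficient libraries sit near 0 for Cd4 to Cd8a, where all controls are above 4, and animal control 232614 is the lowest point for Cd8a to Cd8b1 at -2.20.

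The Cd8a to Cd8b1 ratio of CPM was 1.495, 2.002 and 1.518 in deficient libraries 142114, 232614 and 432614. It was 0.878, 0.469 and 0.994 in genetic controls 124, 8619 and 8800, so the deficient libraries lay above these controls. The animal controls of mice 142114, 232614 and 432614 read 1.10, 0.217 and 1.72, and their range overlapped that of the deficient cells. The mean log2 ratio was 0.73 ± 0.24 in the deficient cells, -0.43 ± 0.58 in the genetic and -0.43 ± 1.57 in the animal controls. Without animal control 232614 the mean of the animal controls was 0.46. Per kb of transcript every library had more Cd8b1 than Cd8a, with ratios of 0.709 to 0.949 in the deficient cells, 0.223 to 0.471 in the genetic and 0.103 to 0.817 in the animal controls.

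In genetic control 8619 Cd8a as well as Cd8b1 had its highest value of that group, though Cd8a (27.2 CPM) was close to that of genetic control 8800 (25.3 CPM). In animal control 232614 Cd8a had its lowest value of that group and Cd8b1 its highest. Genetic control 8619 also had the highest summed CPM of the 5 measured dendritic and myeloid markers, 308 CPM against 8.53 to 62.5 CPM in the other 8 libraries. Its 6 measured NK cell markers summed to 51.0 CPM against 5.39 to 23.2 CPM elsewhere. Animal control 232614 was not high in either list, at 21.3 and 5.39 CPM. The part of these markers in the Cd8b1 values was not tested.

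Within the mice that gave both populations, each mouse showed the same directions. In mouse 142114 Cd4 was 2.15-fold lower in the deficient than in the animal control cells, and Cd8a was 10.5-fold and Cd8b1 7.73-fold higher. In mouse 232614 Cd4 was 2.61-fold lower, Cd8a 20.8-fold higher and Cd8b1 2.26-fold higher. In mouse 432614 Cd4 was 2.78-fold lower, Cd8a 7.02-fold higher and Cd8b1 7.97-fold higher. The deficient cells of the 3 mice were alike, and the range of the folds came mostly from the animal controls, where Cd8a spread by 2.72-fold and Cd8b1 by 2.93-fold between mice. In the deficient cells the highest library exceeded the lowest by 1.16-fold for Cd4, 1.10-fold for Cd8a and 1.22-fold for Cd8b1.

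**Figure D3:**
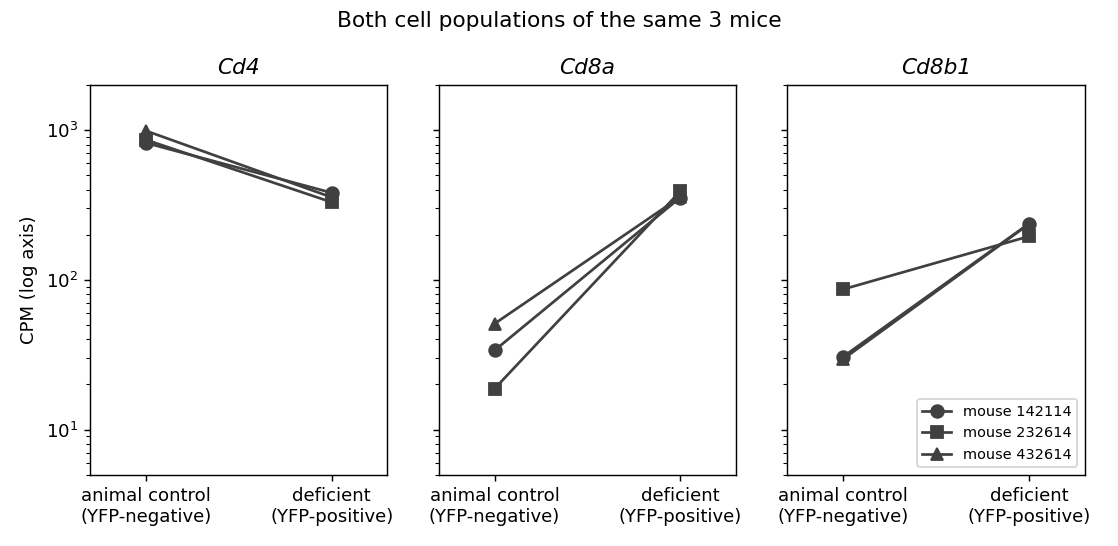
CPM on a log axis in YFP-negative animal control cells and YFP-positive deficient cells of the same mouse, joined by a line for each of 3 mice. Cd4 falls and Cd8a and Cd8b1 rise along every line, and mouse 232614 has the shallowest Cd8b1 line, 2.26-fold.

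Genes nearest in profile were found by the root mean square difference between log2 values over the 9 libraries, each gene centred on its own mean, among genes that reached 10 CPM in a group. The 9 libraries fall into groups, so any gene with a like group difference comes near, and the measure says nothing more. Those nearest to Cd4 were Tnfrsf4, which encodes the co-stimulatory receptor OX40 (0.12), Samhd1, an enzyme that breaks down nucleotides (0.17), the phosphatase Ptpn7 (0.20), the co-stimulatory receptor Cd28 (0.21) and the calcium pump Atp2b1 (0.22). Tnfrsf4 fell from 732 ± 196 CPM in the genetic and 767 ± 28.9 CPM in the animal controls to 337 ± 37.4 CPM (limma adjusted p = 0.0256 and 0.0136). Samhd1 fell from 644 ± 34.6 and 647 ± 24.6 to 301 ± 15.5 CPM (limma adjusted p = 0.00111 and 9.25e-04). Ptpn7 also passed against both controls (limma adjusted p = 0.0381 and 0.0245). Atp2b1 passed against the animal controls (limma adjusted p = 0.115 and 0.0406), and Cd28 against neither (0.0715 and 0.110). Samhd1 stayed called in every fit without 1 library for both comparisons. Tnfrsf4 and Ptpn7 each missed the threshold in 8 of the 9 against the genetic and 5 against the animal controls (limma adjusted p up to 0.110 and 0.143), and Atp2b1 in 8 against the animal controls.

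Nearest to Cd8a were Gpr56, an adhesion receptor found on cytotoxic lymphocytes (0.71), the polyamine oxidase Paox (0.72), the RNA-binding protein gene Mex3a (0.79), Cd160, a receptor of cytotoxic lymphocytes (0.87), and the gut-homing chemokine receptor Ccr9 (0.89). These distances were larger than those of Cd4. Ccr9 rose from 23.6 ± 17.8 CPM in the genetic and 44.3 ± 26.4 CPM in the animal controls to 415 ± 73.1 CPM (limma adjusted p = 0.00977 and 0.0290). It stayed called in all 9 fits without 1 library against the genetic controls and in 3 against the animal controls. Gpr56 measured 82.8 ± 33.0 CPM in the deficient cells against 12.5 ± 8.93 and 8.47 ± 2.04 CPM, and passed against the animal controls (limma adjusted p = 0.0537 and 0.0289), a call lost in 6 of those 9 fits. Cd160 measured 103 ± 6.47 CPM against 12.5 ± 11.8 and 25.6 CPM (animal controls 9.80 to 41.8) and did not pass (limma adjusted p = 0.0693 and 0.248). Paox (0.104 and 0.286) and Mex3a (0.128 and 0.196) did not pass either, by their limma adjusted p. Both reached a mean of 10 CPM only in the deficient cells. They thus entered the ranking through the group where they are high, and their nearness to Cd8a is no separate result.

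Nearest to Cd8b1 were the deubiquitinase Usp11 (0.58), Nkg7, a protein of cytotoxic granules (0.62), Timeless, a protein of replication forks (0.67), Lysmd1 (0.70) and Paox (0.72). Nkg7 was the member of this set that passed, with 242 ± 12.1 CPM in the deficient cells against 70.5 ± 32.6 and 70.4 ± 10.1 CPM (limma adjusted p = 0.0237 and 0.0245). It missed the threshold in 5 and 6 of the 9 fits without 1 library. The limma adjusted p of Usp11, Timeless and Lysmd1 ran from 0.252 to 0.435. Lysmd1 and Paox reached a mean of 10 CPM only in the deficient cells, so they too entered the ranking through that group.

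Cd8a and Cd8b1 were not each other's nearest genes. Cd8b1 was number 9 of 8937 genes ranked by distance from Cd8a, and Cd8a number 60 from Cd8b1, at a difference of 0.97. Without genetic control 8619 and animal control 232614 the difference was 0.41 over 7 libraries, and each was then number 1 for the other. Those libraries were left out because their Cd8b1 values stood apart, so a smaller difference follows from the choice. Cd4, which moves the other way, was number 7499 from Cd8a and 7327 from Cd8b1.

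**Figure D4:**
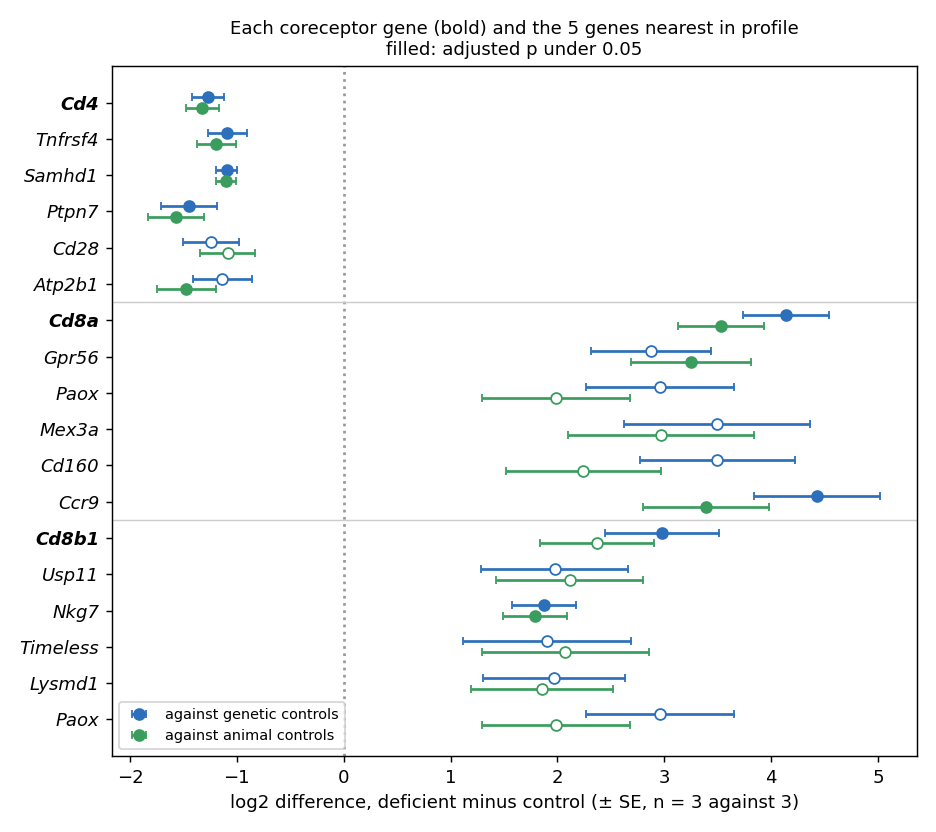
Log2 difference (± SE, n = 3 against 3) between deficient cells and each control group for each coreceptor gene (bold) and the 5 genes nearest to it in profile, with filled points for adjusted p under 0.05. Cd8a lies at 4.14 and 3.53, and of the genes listed with it only Ccr9 is filled in both comparisons.

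Within 250 kb of Cd4, 23 of 42 annotated genes were measured, and 0 rose and 0 fell in any comparison between the groups. With 0.869% and 0.891% of all genes called, a count of 0 among so few genes is near the background. Over all 23 the median log2 difference was -0.03 against the genetic and 0.04 against the animal controls. Of those neighbours, 16 reached 10 CPM in a group, with medians of 0.15 and 0.07. All deficient libraries lay above the controls for 4 of the 16 in each comparison and below them for 0, where 8.44% and 7.85% of all genes lay above. Ptms, Pianp and Lpcat3 were among the 4 in both. Pianp reached a mean of 10 CPM only in the deficient cells, so it entered the 16 through the group where it is high. The shares of all genes carry no such filter, so they are not a like measure for this count. Lag3, a homologue of CD4 that also binds MHC class II and lies 16.1 kb away, averaged 1.73 CPM in the deficient cells and 3.51 and 3.94 CPM in the genetic and animal controls. Ptms, 25.5 kb away, measured 37.7 CPM in the deficient cells against 15.1 and 24.6 CPM and did not pass (limma adjusted p = 0.161 and 0.552). Pianp, 108 kb away, averaged 11.6 CPM against 0.00943 and 1.02 CPM (limma adjusted p = 0.125 and 0.244). Lpcat3, an enzyme of phospholipid remodelling 160 kb away, averaged 109 CPM against 41.3 and 64.6 CPM (limma adjusted p = 0.136 and 0.435).

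Around the Cd8a and Cd8b1 pair, 7 of 22 annotated genes were measured within 250 kb, and again 0 rose and 0 fell. That count too is near the background of 0.869% and 0.891% of all genes called. The median log2 difference of the 4 neighbours that reached 10 CPM was -0.30 against the genetic and -0.36 against the animal controls. Rmnd5a, which lies 9.46 kb from Cd8a, averaged 157 CPM in deficient libraries, against 134 CPM in the genetic and 105 CPM in the animal controls (limma adjusted p = 0.912 and 0.507). Krcc1, 37.5 kb from Cd8b1, averaged 67.8, 96.7 and 84.8 CPM in the same order (limma adjusted p = 0.651 and 0.763).

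**Figure D5:**
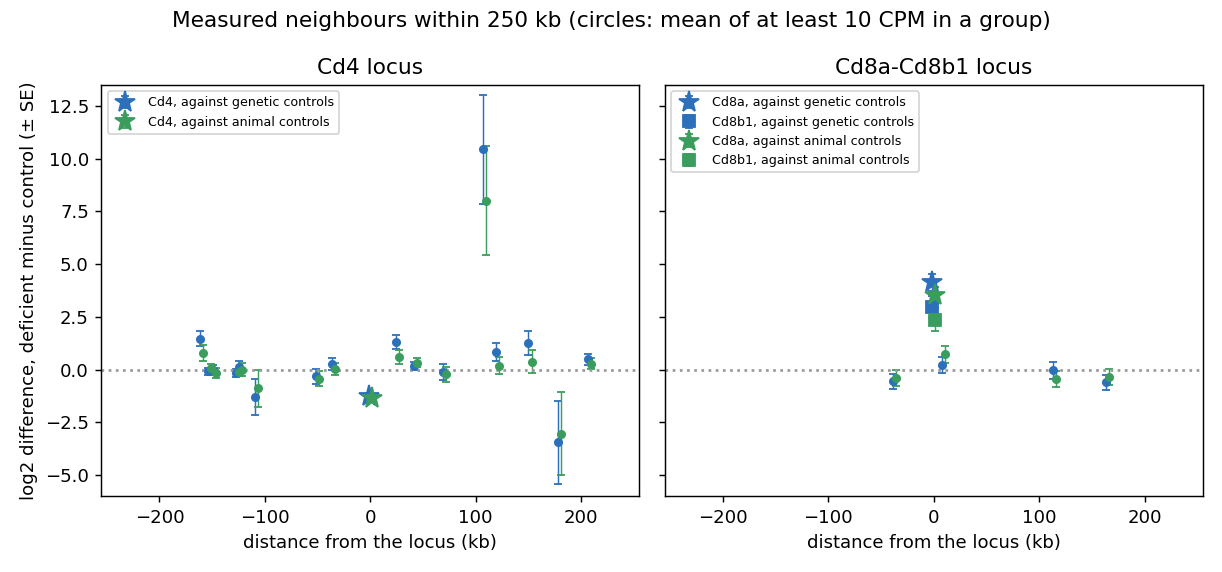
Log2 difference (± SE) between deficient cells and each control group for measured genes that reached 10 CPM in a group, against their distance in kb from Cd4 or from the Cd8a and Cd8b1 pair (stars and squares, at 0). Around Cd8a and Cd8b1 the neighbours stay between -0.60 and 0.74, and the high point near Cd4, at 10.5 and 8.02, is Pianp, which did not pass.

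Of 27 genes for factors known to control coreceptor genes, all measured, 1 rose and 1 fell in each comparison of deficient cells with controls, where 0.869% and 0.891% of all genes were called. The gene deleted by design, Zbtb7b, is among them. The list's median log2 difference was 0.14 against the genetic and 0.21 against the animal controls, where all genes had 0.04 and 0.04. Zbtb7b was the gene that fell in both. Runx3, the Runx factor of the CD8 lineage, read 101, 90.3 and 97.1 CPM in deficient libraries 142114, 232614 and 432614, and 17.9, 19.7 and 34.9 CPM in genetic controls 124, 8619 and 8800. It rose against these by 2.05 ± 0.33 (limma adjusted p = 0.0240). In the animal controls of mice 142114, 232614 and 432614 it read 91.7, 53.9 and 66.1 CPM, where animal control 142114 lay within the deficient range and the other 2 below it (0.48 ± 0.33, limma adjusted p = 0.647). The Runx3 call was lost without deficient libraries 142114, 232614 or 432614 (limma adjusted p = 0.0823, 0.0729 and 0.0820). It was also lost without genetic controls 124 or 8619 (0.0696 and 0.0866) and, narrowly, without animal control 432614 (0.0506).

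Dnmt3a, a DNA methyltransferase, rose against the animal controls, from 97.6 ± 8.69 to 217 ± 11.8 CPM (limma adjusted p = 0.0380), and measured 147 ± 41.0 CPM in the genetic controls (limma adjusted p = 0.321). Its call was lost in 7 of the 9 fits without 1 library. Satb1, a chromatin organizer of thymocytes, measured 858 ± 210 CPM against 592 ± 23.5 and 415 ± 106 CPM (limma adjusted p = 0.455 and 0.0680). Tcf7, which encodes TCF-1, measured 586 ± 64.4 CPM against 845 ± 130 and 717 ± 59.1 CPM (limma adjusted p = 0.131 and 0.418). For Ets1 the limma adjusted p was 0.435 and 0.365, and for Tox2, near the lowest values in 2 deficient libraries, 0.335 and 0.190.

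Of 23 genes for partners of the coreceptors in receptor signalling, 1 rose and 0 fell against the genetic controls, and 0 rose and 0 fell against the animal controls. With 0.869% and 0.891% of all genes called, such counts in a list this short are near the background. The list's median differences were -0.05 and -0.10 on the log2 scale. Lck, the kinase that binds the tails shown above and is singled out for that reason with its values known, read 1848, 1969 and 2250 CPM in deficient libraries 142114, 232614 and 432614. It read 1629 to 2290 CPM in the genetic and 1455 to 2091 CPM in the animal controls, so the groups overlapped. Cd3e, a chain of the T cell receptor complex, was the gene that rose, from 906 ± 74.9 to 1255 ± 55.1 CPM (limma adjusted p = 0.0398). The animal controls stood at 1342 ± 88.7 CPM (limma adjusted p = 0.746), and the call was lost in each of the 9 fits without 1 library. Zap70, the kinase that docks on the receptor, measured 181 ± 23.0 CPM against 289 ± 25.7 and 243 ± 40.8 CPM (limma adjusted p = 0.128 and 0.368). Unc119, an activator of Lck, had limma adjusted p of 0.228 and 0.331.

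Of 8 ligand genes, among them MHC class I and II chains and Il16, a cytokine that binds CD4, 0 rose and 0 fell against either control. As 0.869% and 0.891% of all genes were called, 0 of 8 is near the background. The lowest limma adjusted p of the 8 was 0.553 against the genetic controls, for H2-T3, and 0.516 against the animal controls, for H2-K1. Il16 measured 421 ± 61.6 CPM against 505 ± 88.1 and 511 ± 48.0 CPM (limma adjusted p = 0.611 and 0.522). H2-T3, whose product binds CD8 alpha dimers, averaged 1.46 CPM in deficient libraries, against 0.0448 CPM in the genetic and 1.198 CPM in the animal controls. H2-Ab1, an MHC class II chain, averaged 14.5, 4.38 and 1.14 CPM in that order, in cells sorted as MHCII-. Its libraries ran from 0.0319 to 33.9, from 0.0105 to 11.1 and from 0.00789 to 3.38 CPM. Those of H2-T3 ran from 0.0620 to 2.94, from 0.0105 to 0.0839 and from 0.0290 to 3.24 CPM. For both genes the groups overlapped.

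Some markers of CD8 T cells were also higher. Beside Cd8a and Cd8b1, 18 of that list were measured, and 3 rose and 0 fell against the genetic controls, while 2 rose and 0 fell against the animal controls. Of all genes, 0.336% and 0.307% were called higher. The median log2 difference was 1.01 and 1.10, and their summed CPM was 1237 to 1494 in the deficient cells, 531 to 781 in the genetic and 539 to 821 in the animal controls. Runx3, Nkg7 and Xcl1 were called against the genetic controls, and Nkg7 and Ctsw, a protease of cytotoxic cells, against the animal controls. Xcl1 averaged 3.41, 0.00457 and 3.91 CPM in deficient, genetic control and animal control cells. Every genetic control was at the table's lowest value for Xcl1, so the size of that difference depends on this floor. The Xcl1 call was lost in 6 of the 9 fits without 1 library. Ctsw measured 268 ± 30.4 CPM against 128 ± 17.7 and 91.9 ± 31.5 CPM (limma adjusted p = 0.115 and 0.0188), and was not called in 4 of the 9. The list did not move as a whole. All deficient libraries lay above the controls for 7 of the 18 genes against the genetic and 5 against the animal controls, and below them for 3 in each, where 8.44% and 7.85% of all genes lay above and 7.28% and 8.1% below. Nkg7, Ctsw, Cd160, the perforin gene Prf1 and the integrin gene Itgae, which is also on the Treg list, lay above both. The chemokine gene Ccl5, the transcription factor gene Tbx21 and the chemokine receptor gene Cxcr3 lay below both. Ccl5, for one, read 18.4 to 22.2 CPM in the deficient libraries and 25.5 to 81.1 CPM in the 6 controls. Of the 18 genes, 1 to 4 were at the table's lowest value in a deficient library. The part of other CD8 T cells in the Cd8a and Cd8b1 values was not tested.

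Of 10 further measured markers of thymocytes that carry both coreceptors, 1 rose and 0 fell against each control, the riser being Ccr9. Called higher were 0.336% of all genes against the genetic and 0.307% against the animal controls. The list's median log2 difference was 0.72 against the genetic and 0.38 against the animal controls. Its summed CPM was 1696 to 2351 in deficient libraries, against 1507 to 1767 in the genetic and 1121 to 1538 in the animal controls. Most of the sum came from Satb1, Tcf7 and Ccr9. Against the genetic controls all deficient libraries lay above for 3 of the 10 genes and below for 1. Against the animal controls they lay above for 5 and below for 3. Of all genes, 8.44% and 7.85% lay above and 7.28% and 8.1% below. Themis, Ccr9 and Satb1 lay above both controls, and Tcf7 below both. Rag1, the recombinase of developing lymphocytes, was at the table's lowest value in all deficient libraries and all genetic controls, and below all animal controls. Markers of helper T cells other than Cd4 had 0 risen and 2 fallen of 11 against each control. These were Zbtb7b and Trat1, an adaptor of the receptor complex, against the genetic controls (Trat1: 40.7 ± 9.25 against 105 ± 16.9 CPM, limma adjusted p = 0.0429, lost in each of the 9 fits without 1 library). Against the animal controls they were Zbtb7b and the co-stimulatory receptor Icos (22.3 ± 6.43 against 84.9 ± 10.8 CPM, limma adjusted p = 0.0138, lost in 2 of them). Of all genes, 0.533% and 0.584% were called lower in the 2 comparisons. Among 12 Treg markers 0 rose, while 3 fell against the genetic controls (Nrp1, Tnfrsf4 and Tigit) and 5 against the animal controls (the same with Foxp3 and Il2ra). Foxp3 was about as low in the genetic controls (33.3 CPM) as in the deficient cells (32.2 CPM), and both used the Foxp3 Cre-YFP allele. Il2ra encodes CD25, on which only the animal controls were chosen. The part of the allele and of the sort in the falls of Foxp3 and Il2ra was not tested. The Tigit call was lost in all 9 fits without 1 library against the genetic and in 3 against the animal controls, and the Il2ra call in 6, while those of Nrp1 and Foxp3 were kept in all 9.

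Other cell types were followed by their measured markers, and 0 rose and 0 fell against either control among 5 of gamma-delta T cells, 6 of NK cells, 5 of dendritic and myeloid cells and 11 of B cells. With 0.869% and 0.891% of all genes called, counts of 0 in lists this short are near the background. Dendritic cells can carry Cd4 or Cd8a, and the dendritic and myeloid markers summed to 14.4, 62.5 and 34.9 CPM in deficient libraries 142114, 232614 and 432614. They summed to 18.9 to 308 CPM in the genetic and 8.53 to 21.3 CPM in the animal controls. Xcr1, a defining marker of the CD8 alpha dendritic cell, was at most 0.01 CPM in the deficient libraries. For Lyz2, 1 of these 5 markers, all deficient libraries lay above all animal controls, as did 7.85% of all genes. NK cell markers summed to 10.3 to 21.1 CPM in the deficient cells, 5.81 to 51.0 in the genetic and 5.39 to 14.8 in the animal controls. Gamma-delta markers summed to 7.80 to 14.3, 8.91 to 19.5 and 25.9 to 36.2 CPM in the same order. B cell markers summed to 701 to 911 CPM in deficient libraries, against 704 to 1119 CPM in the genetic and 1324 to 1878 CPM in the animal controls, mostly from Ighm (629 to 1770 CPM over the 9 libraries). The part of these cells in the coreceptor values was not tested.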

How the data were processed

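RNA was purified on columns (RNeasy plus micro), amplified with SMARTer Ultra Low Input chemistry and prepared with Nextera XT for 9 libraries, per the labels' protocols. The submitters' processing notes name bcl2fastq 1.8.4, STAR 2.4.0h, limma and mm10. Which counter, gene annotation, filter and normalization were applied is not stated there. The values deposited by the authors are log2 CPM: linear values sum to between 999252 and 999256 in each library. All columns share their lowest (-7.77) and highest (13.42) value, which was read as quantile normalization. Depth cannot be recovered. Of 13702 rows, 4 duplicates were dropped.

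Values were used as deposited. Limma-trend (limma 3.58.1, R 4.3.3) was fitted to all 13698 genes in 1 model of 3 group means, two-sided, with p-values adjusted by Benjamini-Hochberg over the whole table and called at an FDR of 0.05; it was tested on simulated data. Libraries of a group are from different mice by their numbers. Coordinates, lengths and coding ends are from GENCODE M21 (GRCm38), which held 94.0% of the symbols. The design allowed a count test, which log2 values do not permit. Members and lists were chosen with earlier results of these data known. Named were the 3 members, Zbtb7b, Zbtb7a, Runx3 and Foxp3, the 5 genes nearest in profile to each member (no predicted genes, clones or receptor segments), neighbours within 250 kb, and list members that were called or had the 4 next lowest adjusted p. Of these, 1 gene is not reported here. Lck, Ccl5, Tbx21, Cxcr3, Prf1, Itgae, Rag1, Themis, Xcr1 and Ighm were added with their values known.

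Deficient and animal control libraries with the same number come from the same mouse. After removal of group means, those pairs correlated at 0.0483, 0.0202 and 0.0170 across 7550 genes, which are not independent replicates. Deficient and animal control libraries of different mice correlated at -0.0304 to 0.00803, below every same-mouse pair. The main fit has no mouse term. Alternatives were no trend, only the 6 libraries compared, a filter at 1 CPM, a pseudocount of 1 CPM, median centring, array weights, mouse terms, and each library left out.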

Additional observations from a re-analysis of the deposited data

How the results depend on the processing

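Cd8a kept its direction and its call against both controls under every alternative run. Cd4 kept its direction against both. Without the variance trend its log2 differences of -1.27 and -1.32 were no longer called (limma adjusted p = 0.116 and 0.0971), nor was the former on the 6 libraries compared (-1.27, 0.0562). Cd8b1 against the genetic controls, at 2.98 in both those fits, was not called there either (0.141 and 0.0847), and ranged from 2.53 to 3.50 without 1 library. Against the animal controls it was called only without both genetic control 8619 and animal control 232614 (2.88), an alternative chosen after seeing the data.

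Counts of called genes moved most. On the 6 libraries compared, 22 were called against the genetic and 52 against the animal controls, and 3 between the control groups; without the 2 libraries named above, 21, 27 and 1. Without 1 library the counts ran from 48 to 93, from 58 to 115 and from 4 to 10. Without the trend 32 were called between the control groups, against 5 in the main analysis.

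Some directions reversed, each for a difference that was not called or for a ratio, which was not tested. Cd4 between the control groups ran from -0.19 to 0.11 without 1 library and was 0.089 without the 2 libraries. Without 1 library, differences from the genetic controls ran from -0.17 to 0.17 for Zbtb7a, -0.23 to 0.10 for Foxp3, -1.13 to 4.86 for H2-Ab1 and -1.74 to 0.94 for Lag3. Against the animal controls they ran from -0.71 to 2.69 for H2-T3 and -1.04 to 0.15 for Xcl1. Array weights gave -0.0058 for Zbtb7a and 0.035 for Lag3, and leaving out the 2 libraries gave 0.054 for Foxp3 and 0.94 for Lag3. The mean log2 Cd4 to Cd8a ratio of the deficient cells ran from -0.13 to 0.048 without 1 library. Per kb of transcript the mean log2 Cd8a to Cd8b1 ratio reversed to -0.35 in the deficient cells. In the genetic controls it moved to -1.51 with the same sign, both by the lengths alone. As a ratio of CPM its mean in the animal controls ran from -1.03 to 0.46 without 1 library. The root mean square difference of Cd8a and Cd8b1, which has no direction, moved from 0.97 to 0.41 without the 2 libraries. The cause of the other changes was not tested.

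With the mouse as a replicate block (fixed term) the limma adjusted p against the animal controls was 0.0188 for Cd4, 0.0153 for Cd8a and 0.168 for Cd8b1, and 90 genes were called; as a random term 148 were. The block changed no call of the 3 genes. Of 27 called differences of other named genes, 282 of 461 alternatives kept the call, 179 lost it and 0 reversed. Depth is unknown, so how far counting error limits the low Cd8a and Cd8b1 values of the controls cannot be given.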
